A study of Mus musculus with 7 samples.

Results

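The cells described here are cycling cells with a stem cell signature from mouse bone marrow LSK cells, the lineage-negative, Sca-1-positive, c-Kit-positive fraction that holds the blood-forming stem cells and the earliest progenitors. They were chosen by their own RNA counts. Each had at least 1000 unique molecular identifiers (UMIs, 1 per captured RNA molecule), at least 500 genes and at most 10% of its UMIs from mitochondrial genes. Each also had a UMI of at least 3 of 10 stem cell genes (Procr, Hlf, Mecom, Mllt3, Fgd5, Hoxb5, Slamf1, Ctnnal1, Pdzk1ip1 and Trpc6), at least 3 UMIs of the proliferation genes Mki67 and Top2a together, no UMI of Flt3 or Dntt and at most 1 UMI of Elane. This gave 759 cells of 24430 that passed the first 3 limits, out of 36465 deposited barcodes. They are called cycling stem-gated cells below.

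The study profiled sorted LSK cells by droplet single-cell RNA sequencing in 7 libraries. All mice are labelled as a mixed 129S1/C57Bl/6 background. The 3 knockout libraries (KO1 to KO3) carry the genotype B4-/- for B4galt1, which encodes a Golgi enzyme that adds galactose to glycan chains, and the 4 WT libraries (WT1 to WT4) carry no allele beyond the background. Neither age, sex, pooling of mice nor the deleted part of the gene is in the labels, no Cre or agent is named, and nothing says that replicates came from separate animals, so the p-values below measure the spread between these libraries, which may be technical. The cycling stem-gated cells numbered 80, 70 and 295 in KO1 to KO3 and 51, 47, 36 and 180 in WT1 to WT4.

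Most blood-forming stem cells in adult marrow rest outside the cell cycle and divide rarely, and a dividing cell passes through DNA synthesis (S phase) and then through G2 and mitosis (M). Mki67 encodes a protein that coats mitotic chromosomes and is made in cycling cells, and Top2a encodes the topoisomerase that untangles replicated DNA. Hlf and Mecom encode transcription factors of stem cells, Mllt3 a chromatin protein that supports their self-renewal, and Procr the surface receptor by which stem cells are often sorted. Flt3 marks multipotent progenitors that are losing stem cell function, Dntt marks lymphoid priming and Elane marks the path to neutrophils.

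Libraries differed in ways that cut across the labels. KO3 and WT4 drew their cell barcodes from one barcode list (list B) and the other 5 libraries from another (list A). Library totals ran from 14970791 to 89747946 UMIs, and the share of kept UMIs from ribosomal protein genes was 30.0% and 30.2% in the list B libraries against 13.7% to 20.8% in list A. Each list holds both labels, so the list was a term in the main tests of genes between labels. The tests of cell shares had no such term. Differences within each list are printed where they bear on a result. KO3 and WT4 shared 88 barcodes, no other pair shared more than 7, and no barcode of a cycling stem-gated cell was shared. RNA of B4galt1 did not separate the labels in these cells: in CPM, which scales a gene's summed UMIs to a common depth per library, it was at 53.8, 57.6 and 28.3 in KO1 to KO3 and at 52.9, 75.4, 41.3 and 42.0 in WT1 to WT4. The labels do not say which part of the gene is deleted, and a 3′ tag outside that part would check nothing, so libraries are named by their labels throughout. Markers of other cell types, summed over each list, spanned 70.4 to 289 CPM for 9 T, NK and B cell genes (Cd3e and Cd3g at 0 in all 7 libraries), 4.84 to 69.8 CPM for 10 macrophage and neutrophil genes and 51.3 to 126 CPM for 8 endothelial and stromal genes (Cdh5 and Col1a1 at 0). They spanned 16.4 to 426 CPM for 8 basophil and mast cell genes, highest in WT4, and 437 to 2821 CPM for 13 erythroid genes. Most of the T, NK and B cell sum was Nkg7 and most of the endothelial sum Pecam1, and the part of these cell types in the results was not tested.

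The proliferation limit removed the most cells, and the Flt3 limit the next most. Of 14325 cells with 3 or more stem genes, 4205 had at least 3 UMIs of Mki67 and Top2a, 940 of these had no Flt3, 868 had no Dntt either, and 759 also passed the Elane limit. The Elane limit weighed most on KO1, where 80 of 140 cells remained, against 51 of 52 in WT1. Of the 759 cells, 638 held both proliferation genes, 112 held Top2a alone and 9 Mki67 alone. The median was 10 UMIs of the pair, with a highest value of 88. On the inner side of the limits stood 226 cells with exactly 3 stem genes, against 168 cycling cells with 2 that were left out, and 84 cells with exactly 3 proliferation UMIs, against 179 stem-gated cells with 2 that were left out. The pooled median depth was 12412.5 against 12278.5 UMIs at the stem limit and 10719 against 9258 UMIs at the proliferation limit. By library the stem limit parted cells of unlike depth, from 10009 against 4806 UMIs in WT2 to 9191.5 against 10976.5 in KO1.

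The stem cell markers were present unevenly. Hlf had a UMI in 75.8% of the cells, Mllt3 in 77.1% and Mecom in 94.5%, while Procr had one in 13.8%. As a background, 946 neutrophil-primed cells with at least 20 Elane UMIs, which should lack stem cell genes, were counted. They had Hlf in 32.8%, Mllt3 in 40.0%, Mecom in 31.4% and Procr in 6.45%. Their median depth was 27649.5 UMIs, against 13218 UMIs in the cycling stem-gated cells. Of those Elane-rich cells, 15.6% had 3 of the 10 stem genes. Quiescent stem-gated cells, defined by the same limits but with no UMI of Mki67 or Top2a (2854 cells, median 6132 UMIs), had Procr in 33.3%, Hlf in 84.9%, Mllt3 in 75.9% and Mecom in 94.8%. Cycling cells with fewer than 3 stem genes, otherwise under the same limits (346 cells, median 11996 UMIs, called other cycling cells below), had Procr in 2.02%, Hlf in 24.6%, Mllt3 in 30.6% and Mecom in 46.2%. These shares were used by the gate and are descriptions.

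The proliferation genes themselves varied by library. Top2a was at 683, 612 and 637 CPM in KO1 to KO3 and at 562, 616, 510 and 661 CPM in WT1 to WT4. Mki67 was at 596, 451 and 231 CPM in KO1 to KO3 and at 444, 598, 593 and 237 CPM in WT1 to WT4. The label groups overlapped for both genes, and the 2 lowest Mki67 values were those of the list B libraries. The promoters of Mki67 and Top2a are shown because both genes define the cells, and those of Hmmr (a spindle and hyaluronan-binding protein), Birc5 (the survivin subunit of the chromosomal passenger complex) and Ube2c (a ubiquitin carrier of the mitotic degradation machinery) because they had the 3 highest ratios of cycling to quiescent cells. Each is the 250 bases before the RefSeq gene start (GRCm38.p6), 5′ to 3′ on the gene's strand. Capitals mark 3 motifs on either strand, where neighbouring matches can overlap. The first is CCAAT, the box bound by NF-Y. The second is TTTGAA, the cell cycle homology region of many G2/M promoters. The third is GAGGAA, the core of sites bound by PU.1, a master regulator of the myeloid lineage. Mki67 lies on the minus strand at chr7:135716380-135716629, Top2a on the minus strand at chr11:99024190-99024439, Hmmr on the minus strand at chr11:40733438-40733687, Birc5 on the plus strand at chr11:117848987-117849236 and Ube2c on the plus strand at chr2:164769679-164769928.
Mki67: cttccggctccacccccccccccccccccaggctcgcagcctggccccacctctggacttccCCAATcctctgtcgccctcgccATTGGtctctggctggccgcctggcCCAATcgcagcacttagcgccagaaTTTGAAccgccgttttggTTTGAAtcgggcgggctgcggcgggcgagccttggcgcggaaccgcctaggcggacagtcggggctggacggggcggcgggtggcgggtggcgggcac
Top2a: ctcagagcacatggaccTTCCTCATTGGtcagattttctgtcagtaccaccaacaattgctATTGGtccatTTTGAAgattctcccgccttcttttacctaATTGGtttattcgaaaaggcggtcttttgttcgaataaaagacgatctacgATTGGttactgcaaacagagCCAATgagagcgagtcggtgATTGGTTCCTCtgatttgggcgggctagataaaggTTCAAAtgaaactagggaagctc
Hmmr: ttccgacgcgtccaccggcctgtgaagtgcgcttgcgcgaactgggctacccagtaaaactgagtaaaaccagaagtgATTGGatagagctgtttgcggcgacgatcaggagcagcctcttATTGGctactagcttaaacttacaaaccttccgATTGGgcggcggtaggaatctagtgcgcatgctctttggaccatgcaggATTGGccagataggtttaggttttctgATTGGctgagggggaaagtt
Birc5: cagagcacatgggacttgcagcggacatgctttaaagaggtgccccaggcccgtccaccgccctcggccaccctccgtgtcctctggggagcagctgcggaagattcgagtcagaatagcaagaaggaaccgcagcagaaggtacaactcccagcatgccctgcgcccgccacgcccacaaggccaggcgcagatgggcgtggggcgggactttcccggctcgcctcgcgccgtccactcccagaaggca
Ube2c: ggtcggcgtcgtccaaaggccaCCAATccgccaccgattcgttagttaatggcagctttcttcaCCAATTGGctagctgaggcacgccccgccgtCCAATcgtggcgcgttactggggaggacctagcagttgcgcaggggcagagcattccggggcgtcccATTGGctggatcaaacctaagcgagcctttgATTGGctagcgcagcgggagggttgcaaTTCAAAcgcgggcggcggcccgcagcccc
The windows of Mki67, Top2a, Hmmr and Ube2c held 5, 10, 5 and 7 matches, and that of Birc5 held 0. CCAAT occurred in the promoters of 76.6% of the 47 G2/M genes that could be matched (of 55) and in 33.8% of all 32851 promoters. TTTGAA occurred in 36.2% and 16.0%, and GAGGAA in 23.4% and 23.3%. Only 33 of 45 S phase genes had a promoter entry, under the 80% needed for a count, so that check is void. A match is a stretch of letters and was not tested as a binding site.

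S phase genes and G2/M genes were both above the quiescent level in every library. After each cell was thinned to 5000 UMIs (735 cells, with 24 shallower ones left out), the median cell held 34, 32 and 24 UMIs of 45 S phase genes in KO1 to KO3 and 37, 28, 34 and 26.5 in WT1 to WT4. For 55 G2/M genes the medians were 33, 39 and 50 in KO1 to KO3 and 34, 59, 34 and 51.5 in WT1 to WT4. Quiescent cells thinned the same way had medians of 6 to 15 for S phase genes and 7 to 10 for G2/M genes. Cells with more S than G2/M UMIs made up 55.8%, 46.7% and 33.8% of the cycling stem-gated cells in KO1 to KO3 and 55.1%, 42.2%, 57.1% and 31.3% in WT1 to WT4. The 2 lowest shares were those of the list B libraries, one of each label, and the label groups overlapped. The list B libraries also had the highest ribosomal shares. Within list A the ribosomal share of these cells was lowest in WT2 (10.6%) and KO2 (14.0%). These 2 libraries also had the lowest shares of cells with more S UMIs in that list. The part of either in the balance was not tested. In quiescent cells the share with more S than G2/M UMIs ran from 37.0% in WT3 to 66.7% in KO2, so this share is not read as S phase by itself. The upper quartile of S phase UMIs in quiescent cells lay above the lower quartile of the cycling cells in KO2 (24 against 19) and WT3 (14 against 12). In the other libraries it lay below. The quiescent set thus held cells with S phase counts in the cycling range, and their cycle state was not tested.

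**Figure D1:**
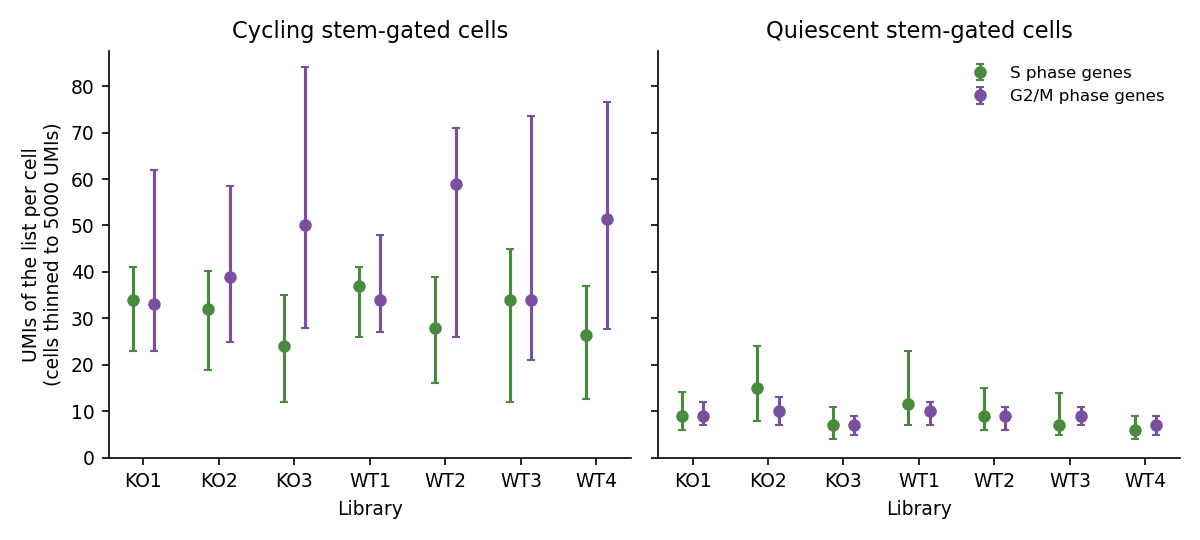
UMIs of the S phase list (green) and the G2/M list (purple) per cell in each library, in cells thinned to 5000 UMIs, with cycling stem-gated cells on the left and quiescent ones on the right. Points are medians over cells and bars run from the lower to the upper quartile. All cycling medians (24 to 59) lie above all quiescent ones (6 to 15).

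The contrast with quiescent stem-gated cells is given as a description only, because the same UMIs chose both sets of cells. It used the counts of all cells of a set summed per library, expressed as CPM with trimmed-mean (TMM) scaling, and ratios were log2(CPM + 1) differences averaged over the 7 libraries. Of 7776 genes with a mean of at least 20 CPM in either set, 20.2% were higher in the cycling cells in all 7 libraries and 17.5% were lower in all 7. Of the G2/M genes 54 of 54 at that level were higher in all 7 libraries, with a median log2 ratio of 3.31, and of the S phase genes 43 of 45, with a median of 1.42. The highest ratios were those of Hmmr (5.41), Birc5 (5.39), Ube2c (5.35), Pclaf (5.22), the linker histone gene Hist1h1b (5.20), Ckap2l (5.12), Kif15 (5.11), Ccna2 (5.02), Nusap1 (4.97), Cdca8 (4.97), Neil3 (4.97) and Esco2 (4.95). Birc5 was at 197, 153 and 465 CPM in KO1 to KO3 and at 205, 133, 208 and 459 CPM in WT1 to WT4, against 1.23 to 9.73 CPM in quiescent cells. Hmgb2, a chromatin protein of dividing cells and the most abundant of these examples, was at 2088, 1677 and 2958 CPM in KO1 to KO3 and at 1836, 1767, 2011 and 3101 CPM in WT1 to WT4, against 223 to 383 CPM in quiescent cells. No cycling library overlapped a quiescent library for either gene.

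Genes that regulate entry into the cycle went both ways, with promoting and restraining genes in each direction. Of 15 such genes at that level, 7 were higher in all 7 libraries and 4 were lower. The higher ones included Cdk4 (log2 ratio 0.83) and Cdk6 (0.81), the kinases of the G1 phase, E2f1 (1.28), Rbl1 (1.05) and the inhibitor Cdkn2c (1.82). The lower ones were Cdkn1c (-1.32), an inhibitor linked to stem cell rest, the D-type cyclin genes Ccnd3 (-1.03) and Ccnd2 (-0.92), and Rbl2 (-0.43), a pocket protein of resting cells. Ccnd2 was at 141, 114 and 272 CPM in KO1 to KO3 and at 181, 123, 223 and 253 CPM in WT1 to WT4. In quiescent cells it was at 318, 208 and 465 CPM in KO1 to KO3 and at 337, 277, 339 and 508 CPM in WT1 to WT4, higher than the cycling cells of the same library each time. Among growth and ribosome biogenesis genes 16 of 20 were higher in all 7 libraries, with a median log2 ratio of 0.58.

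Stem cell genes were lower in the cycling cells. Of the gate's own genes 7 of 8 at that level were lower in all 7 libraries, with a median log2 ratio of -1.14. Procr was at 7.98, 10.7 and 7.64 CPM in KO1 to KO3 and at 11.2, 13.1, 30.0 and 24.3 CPM in WT1 to WT4. In quiescent cells Procr was at 58.3, 36.2 and 72.5 CPM in KO1 to KO3 and at 68.5, 43.1, 61.2 and 120 CPM in WT1 to WT4, above every cycling library. Hlf was at 192, 186 and 124 CPM in KO1 to KO3 and at 244, 413, 242 and 198 CPM in WT1 to WT4, a mean log2 ratio of -1.38. Mllt3 followed at -1.34 and Mecom at -0.82, while Slamf1, which encodes the CD150 antigen of stem cells, was the exception at -0.23.

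Stem cell genes that the gate did not use moved the same way in number. Of 18 at that level, 14 were lower in all 7 libraries and none was higher, with a median log2 ratio of -0.68. They included Mycn (-1.57), Ifitm1 (-1.31), Txnip (-1.20), which restrains glucose uptake, Prdm16 (-1.10) and Meis1 (-0.66). Runx1 (-0.12) and Gata2 (-0.09), which are also used by progenitors, were close to 0. Of surface markers of LSK subsets, Cd48 (1.16) and Itga2b (1.13) were among those higher in all 7 libraries, and Ly6a (-1.60), which encodes Sca-1, Eng (-0.73) and Kit (-0.33) were lower. The lowest ratios of all went to Ncam2 (-4.10), the noncoding RNA Meg3 (-3.69), Il1rapl2 (-3.00), Cd74 (-2.97), Kdm7a (-2.75), Iigp1 (-2.45), Mmp16 (-2.36), Ltb (-2.32), Ptprm (-2.20), Procr (-2.13), Sox5 (-2.04) and Prex2 (-2.02). Ltb, a lymphotoxin gene, was at 14.0, 16.1 and 67.5 CPM in KO1 to KO3 and at 14.4, 13.1, 24.4 and 57.0 CPM in WT1 to WT4. In quiescent cells it was at 87.1, 42.1 and 354 CPM in KO1 to KO3 and at 89.1, 72.7, 120 and 409 CPM in WT1 to WT4, higher than the cycling cells of the same library each time.

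Other groups are read against all genes at that level. Of those, 20.2% were higher in all 7 libraries and 17.5% were lower in all 7. Of 15 immediate early genes, which respond within minutes to stimulation or handling, 12 were lower in all 7 libraries with a median log2 ratio of -0.90, among them Junb (-1.27), Egr1 (-1.07), Fos (-0.84) and Jun (-0.67). Of 15 components of the Wnt pathway 11 were lower and 1 was higher (median -0.36), with the co-receptor gene Ryk (-1.42) and the transcription factor gene Tcf7l2 (-1.04) lower and the kinase gene Gsk3a (0.62) higher. Of 11 interferon response genes 6 were lower (median -0.61), and Ifitm3 stood at -0.61. Of 8 myeloid genes 3 were higher: Ctsg (2.06), Ms4a3 (1.59) and Mpo (1.41). Of 12 megakaryocyte genes 1 was higher and 2 were lower, no more than the shares over all genes.

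**Figure D2:**
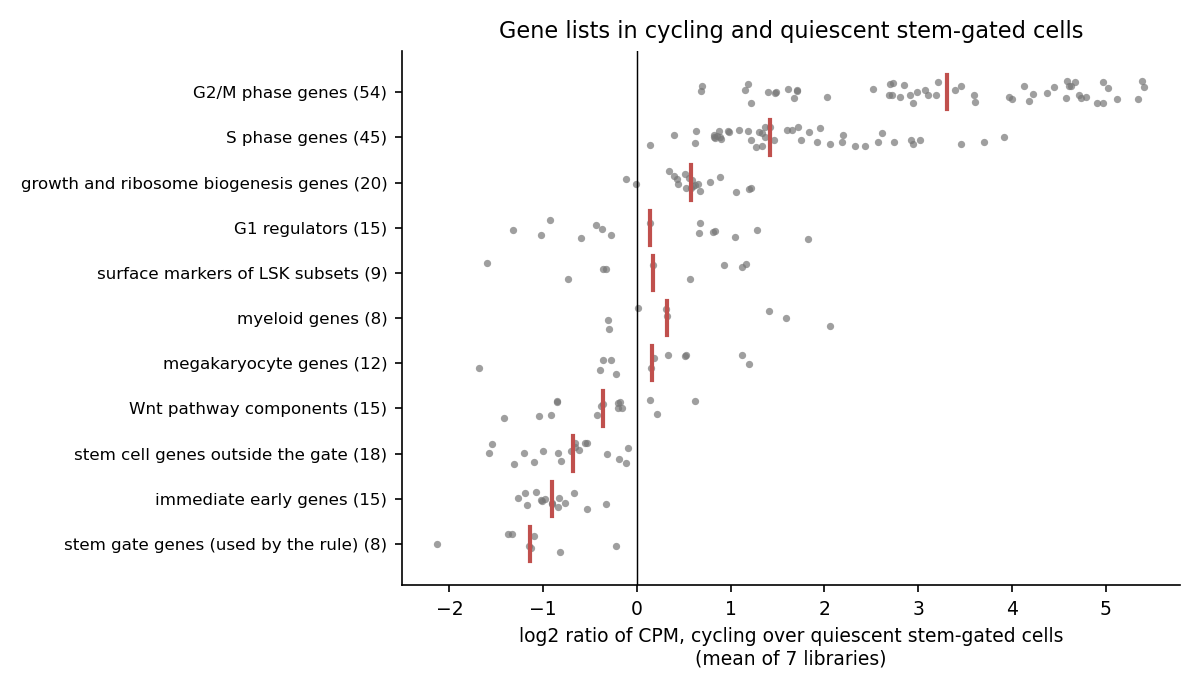
Mean log2 ratio of CPM, cycling over quiescent stem-gated cells, for each gene with at least 20 CPM (points) in the gene groups named in the text, with the group's median. G2/M genes lie highest (median 3.31) and the gate's stem cell genes lowest (median -1.14).

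Depth differed between the sets, so the ratios were repeated in cells of 8000 to 16000 UMIs, 446 cycling and 589 quiescent. The cycling cells of this range were still deeper in all 7 libraries, with medians of 13060 against 9294 UMIs in KO3 and 11012 against 9196 in KO1. Depth was thus matched only in part, and the gate's own genes chose both sets. In those cells the summed level of the gate's stem genes in cycling cells, as a share of all UMIs, was 0.695 of the quiescent value in the median library (range 0.522 to 0.926) and lower in 7 of 7 libraries. Stem genes outside the gate stood at 0.724 (0.605 to 0.777) and immediate early genes at 0.624 (0.485 to 0.739), each lower in 7 of 7. Procr stood at 0.329 (0.159 to 0.854), Ltb at 0.304 (0.167 to 0.411) and Ccnd2 at 0.513 (0.433 to 0.627), also lower in 7 of 7. The Wnt components, at 0.848 (0.771 to 1.04), were lower in 6 of 7. Mllt3, at 0.595 (0.328 to 1.42), and Mecom, at 0.849 (0.566 to 1.06), were also lower in 6 of 7, and Ncam2, which led the unmatched list, in 5 of 7. Growth genes stood at 1.20 (0.95 to 1.43) and Mpo at 1.54 (0.983 to 6.32), so that growth genes were lower in 1 library and Mpo in 2.

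The first question of the design is whether the knockout label changed how many such cells there were. Among kept cells they made up 2.60% of KO1 (exact binomial 95% confidence interval 2.07 to 3.23), 4.06% of KO2 (3.18 to 5.10) and 4.30% of KO3 (3.84 to 4.81). In the WT-labelled libraries the shares were 4.10% (3.07 to 5.36), 4.01% (2.96 to 5.30), 2.40% (1.69 to 3.31) and 2.03% (1.75 to 2.35). These intervals cover counting error only. The means were 3.66% ± 0.918 (SD, n = 3) and 3.14% ± 1.07 (SD, n = 4), and the groups overlapped. The difference of 0.52 percentage points was smaller than the spread between libraries (two-sided exact permutation p = 0.343, adjusted over both shares 0.686). The smallest p that 35 splits allow in a single direction is 0.0286. The two-sided p counts both directions, so with these libraries it could not reach 0.05 for either share, whatever the data. The tests therefore cannot decide whether the label changed the shares.

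Among stem-gated cells of any cycle state, the cycling share was 19.3%, 20.5% and 20.5% in KO1 to KO3 and 23.4%, 20.3%, 17.7% and 12.2% in WT1 to WT4. The means were 20.1% ± 0.71 (SD, n = 3) and 18.4% ± 4.74 (SD, n = 4), a difference of 1.70 percentage points (two-sided exact permutation p = 0.686). Neither permutation test took the barcode list into account. Within list A the differences were -0.17 and -0.56 percentage points for the 2 shares. Within list B, with 1 library per label and no test, they were 2.27 and 8.29 percentage points. The positive pooled differences thus did not hold within list A. In cells thinned to 5000 UMIs before gating they also turned negative, at -1.08 and -0.952 percentage points. The second difference turned to -0.365 without WT4.

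**Figure D3:**
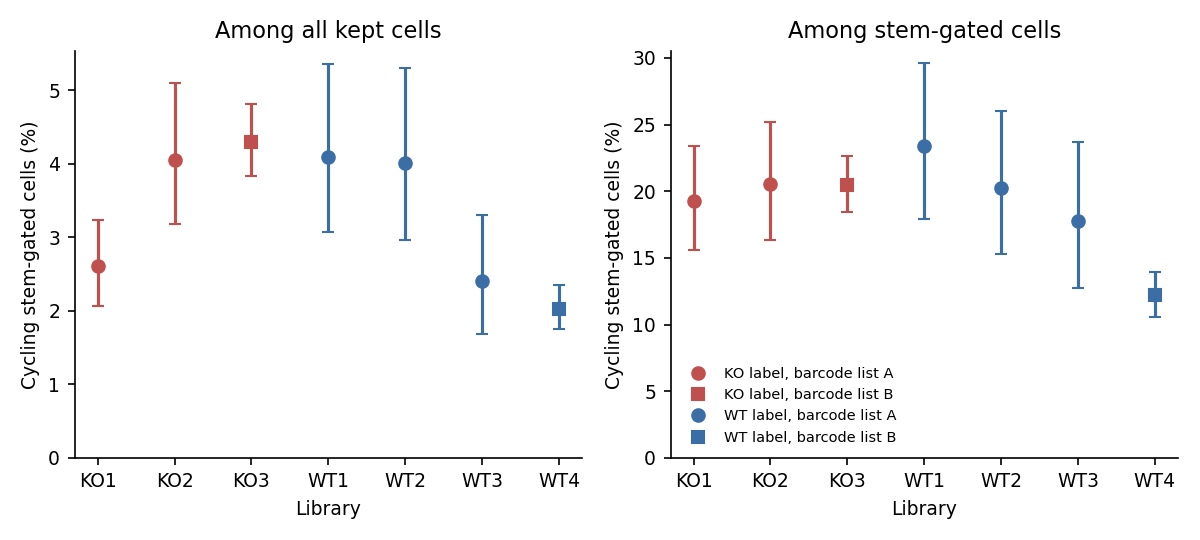
Share of cycling stem-gated cells among kept cells and among stem-gated cells of any cycle state (vertical axes, percent) in each library, with exact binomial 95% intervals and marks for the barcode list. The knockout-labelled libraries (2.60% to 4.30% of kept cells) overlap the WT-labelled ones (2.03% to 4.10%).

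The second question is which genes differed between the labels within these cells. Counts were summed per library, from 501865 to 4679380 UMIs, and tested with edgeR's quasi-likelihood test with the barcode list as a term and Benjamini-Hochberg adjustment over all genes tested. Of 8386 genes, 6 passed an adjusted p of 0.05 (0.0715%), all higher in the knockout-labelled libraries, while 319 had an unadjusted p under 0.05. They were the neutrophil granule genes Ctsg and Prtn3 and the granulocyte-monocyte progenitor gene Ms4a3, the serpin gene Serpina3g, the phosphoinositide phosphatase gene Inpp4b and the platelet integrin gene Itga2b. Every knockout-labelled library lay above every WT-labelled one for 74 of the 8386 genes (0.882%), among them Ctsg, Prtn3, Ms4a3 and Inpp4b, and below for 57 (0.68%). Without the barcode list term no gene passed (edgeR, 43 at an unadjusted p under 0.05), and DESeq2 called 6 genes, 5 of them the same. Leaving out 1 library in turn gave 4 to 22 calls, with 22 without KO2 and 19 without WT2.

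Ctsg (cathepsin G, ENSMUSG00000040314, chr14:56099881-56102574, minus strand) was at 214, 212 and 84.9 CPM in KO1 to KO3 and at 78.5, 50.8, 71.3 and 29.6 CPM in WT1 to WT4. The groups did not overlap, with KO3 just above WT1. The edgeR log2 fold change was 1.62 (SE 0.19, adjusted p = 5.8e-06). The log2 difference of mean CPM + 1 was 1.66 within list A and 1.49 within list B, which has 1 library per label. The pairs of list A and list B values below for Prtn3, Ms4a3, Serpina3g, Inpp4b and Muc13 were made the same way. They are not edgeR estimates. Prtn3 (proteinase 3, chr10:79874476-79883174, plus strand) was at 256, 396 and 231 CPM in KO1 to KO3 and at 104, 91.7, 137 and 144 CPM in WT1 to WT4, again without overlap. This was a log2 rise of 1.27 (SE 0.21) at an edgeR adjusted p of 0.00389, with 1.55 in list A and 0.68 in list B. Ms4a3 (chr19:11629496-11640851, minus strand), a membrane protein gene of granulocyte-monocyte progenitors, was at 82.7, 50.9 and 28.3 CPM in KO1 to KO3 and at 6.41, 11.5, 3.75 and 14.6 CPM in WT1 to WT4. The edgeR estimate for Ms4a3 was 2.12 on the log2 scale (SE 0.36, adjusted p = 0.0132), with 3.05 in list A and 0.91 in list B. Most cells held little Ctsg: 690 of 759 had 2 UMIs or fewer, and the median cell held 1 UMI in KO1 and 0 in the other 6 libraries. The 5 cells with the most Ctsg held 134 of 215 UMIs in KO1, 86 of 158 in KO2 and 146 of 333 in KO3. In WT1 to WT4 the 5 highest cells held 34 of 49, 31 of 31, 27 of 38 and 48 of 67. The 5 highest cells thus held most of the Ctsg UMIs in every library except KO3, where they held 43.8%. In sums over cells, more cells with a gene and more RNA per cell cannot be told apart.

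These 3 granule-lineage genes were not confined to the cycling stem-gated cells. On the scale of unscaled CPM (UMIs of the gene over all UMIs of the cells, with no TMM factor), Ctsg in all kept cells stood at 2505, 812 and 427 in KO1 to KO3 and at 388, 197, 108 and 200 in WT1 to WT4. In cells with at least 3 Dntt UMIs, a lymphoid-primed set of which it is no marker, Ctsg stood at 471, 252 and 263 in KO1 to KO3 and at 114, 63.9, 75.1 and 102 in WT1 to WT4. On that scale the cycling stem-gated cells had 229, 237 and 71.2 in KO1 to KO3 and 84.2, 58.0, 75.7 and 25.4 in WT1 to WT4, below the Dntt set in 6 of 7 libraries and level with it in WT3. Quiescent stem-gated cells stood lower, at 104, 44.6 and 25.7 in KO1 to KO3 and at 30.4, 6.94, 4.61 and 8.87 in WT1 to WT4, with a median depth of 4045.5 to 7164 UMIs against 9732.5 to 15227 UMIs. For Ctsg, 60.0%, 38.6% and 27.1% of the cycling stem-gated cells had a UMI in KO1 to KO3 and 33.3%, 10.6%, 30.6% and 12.8% in WT1 to WT4, against 50.4% to 70.8% and 29.0% to 32.7% of the Dntt set at a median depth of 10318 to 14375 UMIs. Prtn3 stood below the Dntt set in KO1, KO3 and WT4 and above it in the other 4 libraries. Ms4a3 differed from both: it stood above the Dntt set in all 7 libraries, at 88.2, 57.1 and 23.7 unscaled CPM against 45.9, 11.3 and 7.71 in KO1 to KO3. In WT1 to WT4 Ms4a3 stood at 6.87, 13.1, 3.99 and 12.5 against 0.649, 0.987, 0.733 and 8.56. Whether free RNA from myeloid cells had a part in the label difference was not tested. With the stricter limit of no Elane UMI at all, 4 genes passed, and Ctsg (log2 1.37), Prtn3 (1.09) and Ms4a3 (1.95) were among them.

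The promoters of the 3 genes are shown because they were called together. Each is the 250 bases before the RefSeq start (GRCm38.p6), with the same motifs in capitals. Ctsg lies on the minus strand at chr14:56102575-56102824, Prtn3 on the plus strand at chr10:79879417-79879666 and Ms4a3 on the minus strand at chr19:11640852-11641101. The Prtn3 window lies inside the gene span given above, which came from the GENCODE annotation and has an earlier start. Its motif match applies to the RefSeq start only.
Ctsg: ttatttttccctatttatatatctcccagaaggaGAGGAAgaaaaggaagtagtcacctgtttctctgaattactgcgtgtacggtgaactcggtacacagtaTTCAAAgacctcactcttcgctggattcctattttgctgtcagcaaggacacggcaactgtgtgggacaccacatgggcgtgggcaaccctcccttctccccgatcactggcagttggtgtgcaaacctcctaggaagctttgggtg
Prtn3: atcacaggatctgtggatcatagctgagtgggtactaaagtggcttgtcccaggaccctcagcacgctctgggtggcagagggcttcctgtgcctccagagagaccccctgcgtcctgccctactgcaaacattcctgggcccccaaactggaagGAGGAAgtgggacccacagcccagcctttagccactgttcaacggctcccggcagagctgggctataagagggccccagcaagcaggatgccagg
Ms4a3: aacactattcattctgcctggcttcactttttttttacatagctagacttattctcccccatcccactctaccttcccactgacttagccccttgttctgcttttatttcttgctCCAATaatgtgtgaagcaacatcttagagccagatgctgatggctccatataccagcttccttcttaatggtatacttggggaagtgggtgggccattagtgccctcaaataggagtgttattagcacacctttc
GAGGAA or its reverse complement occurred in the windows of Ctsg and Prtn3 and not in that of Ms4a3, which held 1 CCAAT. It occurred in 4 of the 6 called genes (66.7%) and in 23.3% of all promoters. Only 11 of 15 myeloid genes had a promoter entry, so that list's count is void.

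Serpina3g (chr12:104236245-104241939, plus strand), an intracellular protease inhibitor gene, was at 160, 81.7 and 364 CPM in KO1 to KO3 and at 56.1, 37.7, 52.5 and 171 CPM in WT1 to WT4. The pooled groups overlapped, because the list B library of each label stood far above its list A ones. Within list A the knockout-labelled libraries lay above the WT-labelled ones, and the log2 differences were 1.29 in list A and 1.08 in list B. The edgeR log2 fold change was 1.23 (SE 0.22, adjusted p = 0.00717), and without KO1 the adjusted p was 0.186. Serpina3g belongs to a cluster of near-identical genes, so its counts are uncertain. Inpp4b (chr8:81342556-82127914, plus strand) was at 242, 169 and 164 CPM in KO1 to KO3 and at 89.7, 129, 78.8 and 80.0 CPM in WT1 to WT4, without overlap. Inpp4b rose by 1.04 on the log2 scale (SE 0.20) at an edgeR adjusted p of 0.0132, by 1.04 in list A and by 1.02 in list B.

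**Figure D4:**
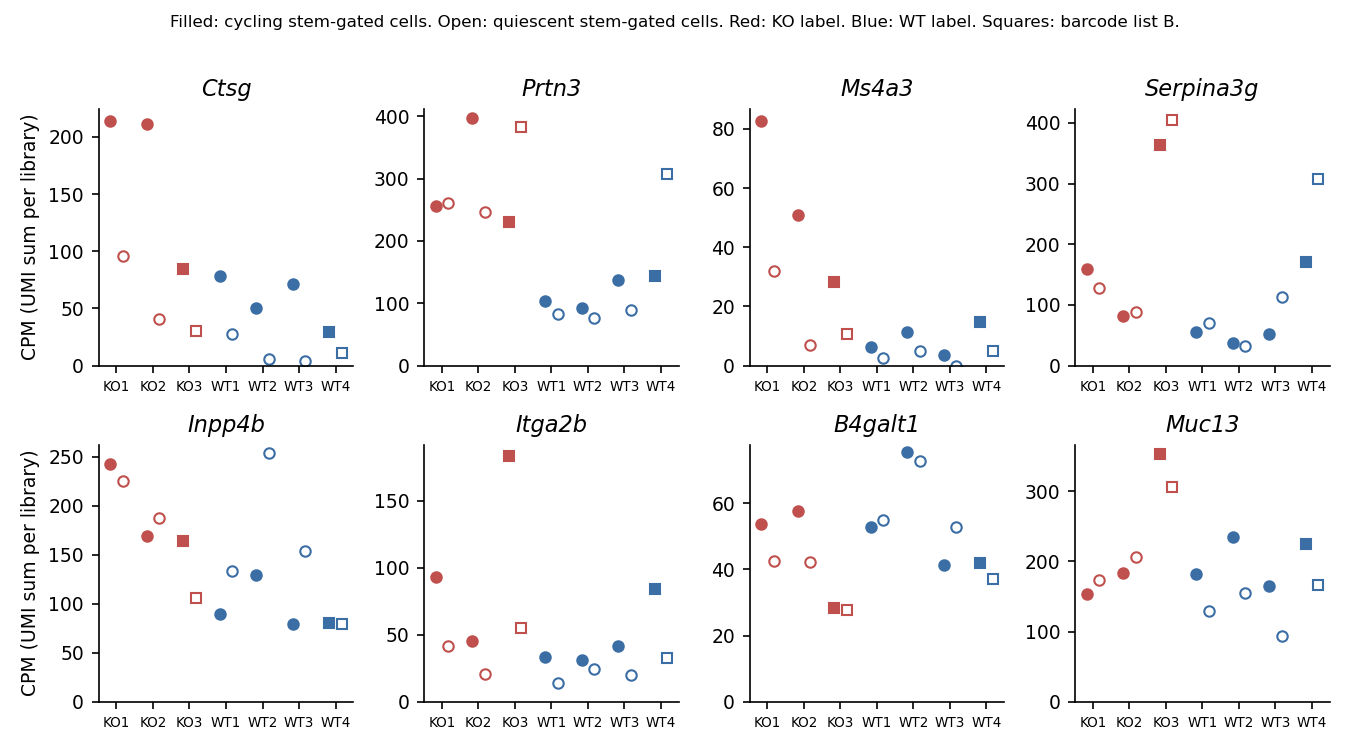
CPM per library (vertical axes, linear from 0) of the 6 genes called between labels and of B4galt1 and Muc13. Filled marks are cycling and open marks quiescent stem-gated cells, red is the knockout label, blue the WT label, and squares are the list B libraries. For Ctsg, Prtn3, Ms4a3 and Inpp4b the filled red marks all lie above the filled blue ones, and for Serpina3g and Itga2b they overlap.

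No gene passed in the other direction, and the 5 with the smallest p among genes of at least 20 CPM are given as values. Pcdh7, a protocadherin gene, was at 72.8, 95.1 and 83.8 CPM in KO1 to KO3 and at 130, 354, 208 and 176 CPM in WT1 to WT4, with a log2 difference of -1.33 (SE 0.26, edgeR adjusted p = 0.0614). The groups did not overlap, and Pcdh7 passed under 11 of 18 alternative settings. The transcription factor genes Nfia (-0.90, edgeR adjusted p = 0.0859), Bach2 (-0.95, 0.138) and Esr1 (-0.75, 0.216) and the immune GTPase gene Gimap6 (-0.75, 0.223) missed the threshold as well. Bach2 stood at 41.9, 89.7 and 31.3 CPM in KO1 to KO3 and at 109, 177, 137 and 47.8 CPM in WT1 to WT4, and its groups overlapped.

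Pf4 RNA was concentrated in a minority of the cells. Pf4, which encodes platelet factor 4, was at 517, 2.68 and 3519 CPM in KO1 to KO3 and at 1.60, 6.55, 15.01 and 835 CPM in WT1 to WT4. Cells with at least 10 Pf4 UMIs numbered 4, 0 and 50 in KO1 to KO3 and 0, 0, 0 and 11 in WT1 to WT4, or 65 of 759 (8.56%). By library they made up 5.00% of KO1, 16.9% of KO3 and 6.11% of WT4, and a count of 0 in the other 4 libraries allows shares of up to 4.29% (KO2) to 8.33% (WT3). Among quiescent stem-gated cells 26 of 2854 (0.911%) had as many Pf4 UMIs, and among other cycling cells 3 of 346 (0.867%). The depth of the Pf4-rich cells, a median of 18973 UMIs, was above that of the remaining 694 cells, 12940.

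The Pf4-rich cells held 97.2% of the Pf4 UMIs of all cycling stem-gated cells, 68.0% of those of Vwf, 49.1% of Itga2b, 33.4% of Gp9 and 35.2% of the megakaryocyte list without Pf4, so most UMIs of that list lay in the other cells. They also differed in other genes, given as a description because they were chosen by their RNA. In unscaled CPM, Itga2b was at 394 in Pf4-rich cells against 61.0 in the rest, Vwf (von Willebrand factor) at 141 against 9.92, the platelet glycoprotein gene Gp9 at 145 against 43.2 and the megakaryocyte-erythroid regulator Gata1 at 81.6 against 37.1. Procr had no UMI in the 65 cells, which allows up to 2.19 unscaled CPM (3 counts of their total), against 14.4 in the rest. Hlf was at 35.7 against 191, Mecom at 153 against 584 and Cd34 at 45.2 against 238. Slamf1 (54.7 against 23.8) and Trpc6 (296 against 96.1) went the other way, and the Pf4-rich cells held a median of 5 gate genes against 4.

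Itga2b (integrin alpha-IIb, chr11:102453297-102470122, minus strand) was at 92.7, 45.5 and 183 CPM in KO1 to KO3 and at 33.6, 31.1, 41.3 and 84.0 CPM in WT1 to WT4. The groups overlapped through KO2 and WT4, and the edgeR log2 fold change was 1.06 (SE 0.22, adjusted p = 0.041). Without the Pf4-rich cells the log2 fold change of Itga2b was 0.55 (edgeR adjusted p = 1.00) and that of Inpp4b 0.64 (adjusted p = 0.577), so both calls ended, while Ctsg (1.72), Prtn3 (1.35), Ms4a3 (2.25) and Serpina3g (1.16) still passed. In that fit 8 genes passed, and Pcdh7 was one of them at -1.29 (adjusted p = 0.0382). Pf4 itself had a log2 fold change of 3.55 with an SE of 1.56 and did not pass. Of 13 megakaryocyte genes tested, 1 rose, none fell, and the median log2 difference was 0.52, against 0.00 over all genes. The list's summed level was 1753, 805 and 5203 CPM in KO1 to KO3 and 646, 893, 700 and 2035 CPM in WT1 to WT4, overlapping between the labels and highest in the list B libraries.

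**Figure D5:**
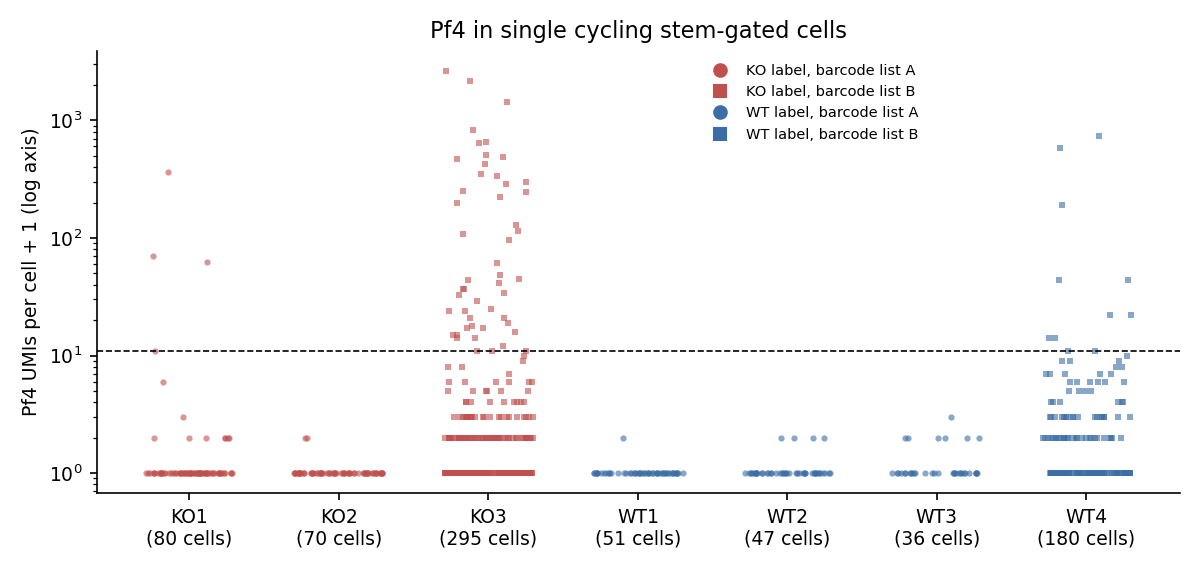
Pf4 UMIs plus 1 in each cycling stem-gated cell (vertical axis, log scale), by library, with squares for the list B libraries and a dashed line at 10 Pf4 UMIs. Cells at or above the line number 50 in KO3, 11 in WT4 and 4 in KO1, and there are none in the other 4 libraries.

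The remaining gene groups gave few calls between the labels. Of 9 myeloid genes tested, 3 rose (Ctsg, Prtn3 and Ms4a3), none fell and the median was 0.94. Mpo, the myeloperoxidase gene, was at 348, 1004 and 288 CPM in KO1 to KO3 and at 413, 301, 321 and 162 CPM in WT1 to WT4, overlapping and short of the threshold (log2 0.93, SE 0.26, edgeR adjusted p = 0.473). The summed myeloid level was 1414, 2225 and 1232 CPM in KO1 to KO3 and 1073, 852, 1015 and 923 CPM in WT1 to WT4. None of the 45 S phase, 54 G2/M, 15 G1 and 20 growth genes tested passed, with medians of -0.00, -0.00, 0.05 and 0.07. None of the 8 gate genes and 17 other stem genes passed either, with medians of -0.13 and -0.12. Hlf had the largest gate difference with a mean above 20 CPM, -0.67 (SE 0.20, edgeR adjusted p = 0.579).

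Glycan and signalling genes showed no call. Of 4 beta-1,4-galactosyltransferases and 6 sialyltransferases tested, none passed, with medians of 0.04 and 0.01. B4galt1 (chr4:40804602-40854005, minus strand) had a log2 difference of -0.23 (SE 0.22, edgeR adjusted p = 1.00). Muc13 (chr16:33794037-33819934, plus strand), a cell-surface mucin gene, was at 154, 183 and 354 CPM in KO1 to KO3 and at 183, 234, 165 and 226 CPM in WT1 to WT4. Its groups overlapped, and its log2 difference of 0.08 (SE 0.21) was -0.20 in list A and 0.65 in list B. Of 5 Wnt target genes, 16 Wnt components, 9 interferon response genes and 14 immediate early genes tested, none passed, with medians of 0.02, -0.16, 0.03 and 0.11. Of genes of other lineages, none of 5 erythroid (median 0.55), 5 lymphoid (-0.35), 2 basophil and mast cell (1.18), 2 T, NK and B cell (0.01) and 1 endothelial gene (0.40) passed, and no macrophage or neutrophil marker was high enough to test.

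The third question is whether a label difference in these cells departed from that in their neighbours, tested as an interaction in edgeR. Against quiescent stem-gated cells, 3 of 9908 genes passed (0.0303%, 465 at an unadjusted p under 0.05): Inpp4b and the haemoglobin genes Hbb-bs and Hba-a1. For Inpp4b the label difference was 0.74 log2 units larger in the cycling cells (SE 0.15, adjusted p = 0.0318). That call held under 5 of 16 alternative settings. Among the settings that ended it were DESeq2 (adjusted p = 1.00), the fit to list A alone (adjusted p = 0.0767) and the fits without KO1, KO3, WT2, WT3 or WT4 (edgeR adjusted p from 0.0674 to 0.517). Without the Pf4-rich cells the difference was 0.32 (edgeR adjusted p = 1.00). Its quiescent levels were 225, 187 and 106 CPM in KO1 to KO3 and 133, 254, 154 and 78.9 CPM in WT1 to WT4, overlapping, where the cycling levels did not overlap. The Hbb-bs difference of 6.34 log2 units rested on 1 cell, which held 841 of the 846 Hbb-bs UMIs of KO3, and 395 of its 397 Hba-a1 UMIs came from 1 cell likewise. DESeq2 called no gene in this comparison (94 at an unadjusted p under 0.05), and without KO2 edgeR called 19, without KO3 12, without WT4 11 and without WT1 6. None of the 3 genes was among the calls in list A, without KO3 or without WT4. For Ctsg the quiescent levels were 96.2, 41.1 and 30.0 CPM in KO1 to KO3 and 27.4, 6.16, 4.27 and 10.7 CPM in WT1 to WT4, also without overlap, and its interaction did not pass.

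Against other cycling cells, 18 of 8980 genes passed (0.2%, 714 at an unadjusted p under 0.05), 12 with a more positive label difference in the cycling stem-gated cells (0.134%) and 6 with a more negative one (0.0668%). Among the more positive ones were Ccr2 (3.75 log2 units), F13a1 (4.18), S100a4 (3.02), Hp (5.21) and Ifi30 (2.32). Each of these had a mean under 20 CPM in the cycling stem-gated cells. The other cycling cells were few, 11 to 18 cells in WT1 to WT3. Whether the lineage make-up of the other cycling cells had a part in the calls was not tested. Plcb1, which encodes a phospholipase C, had an interaction of 2.76 log2 units (SE 0.39, edgeR adjusted p = 9.7e-05). It was at 54.8, 52.2 and 68.8 CPM in KO1 to KO3 and at 36.8, 32.8, 28.1 and 46.0 CPM in WT1 to WT4 in the cycling stem-gated cells. In other cycling cells it was at 62.8, 99.5 and 6.30 CPM in KO1 to KO3 and at 430, 270, 512 and 10.6 CPM in WT1 to WT4, so the high values were those of WT1 to WT3.

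Cd34, the progenitor surface antigen gene, had an interaction of -1.55 (SE 0.32, edgeR adjusted p = 0.0248). Cd34 was at 160, 224 and 225 CPM in KO1 to KO3 and at 263, 236, 272 and 258 CPM in WT1 to WT4 in the cycling stem-gated cells. In other cycling cells it was at 208, 220 and 313 CPM in KO1 to KO3 and at 164, 41.6, 104 and 118 CPM in WT1 to WT4. The label groups did not overlap in either set, and their order was opposite. Adgrl4, an adhesion receptor gene of endothelium and stem cells, gave -1.97 (SE 0.38, edgeR adjusted p = 0.0187), with 482 to 655 CPM in knockout-labelled and 95.6 to 285 CPM in WT-labelled other cycling cells. Rgs10, a regulator of G-protein signalling, gave 1.89 (SE 0.39, edgeR adjusted p = 0.0248). Hbb-bs gave 7.60 log2 units and again carried the single cell of KO3. Without KO3 it was -2.52 (edgeR adjusted p = 0.977). The Plcb1 call held under 13 of 16 alternative settings, that of Adgrl4 under 11, and those of Cd34 and Rgs10 under 8 each. Both of the last lost the call in list A and without KO1, KO3 or WT4, and Adgrl4 lost it without KO1 or KO2. Against the 18 genes, DESeq2 called 9, the fit without the barcode list 2 and the fit on cells of at most 5% mitochondrial UMIs 1. Without WT1 edgeR called 77 genes and without KO2 11.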

How the data were processed

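Sorted LSK cells of 7 libraries were profiled with a droplet 3′ kit, which the labels' protocols name as version 2. The deposited matrices hold whole-number UMI counts per gene and barcode, made by the authors with Cell Ranger 7.0.0 on mm10, with Seurat 4.4.0 also named, per the submitters' processing notes. All of the files' columns were used (0 left out). The members and gene lists described here were chosen with earlier results of these data known.

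Cells were kept and gated as stated in the report. UMI counts were summed per library and cell set (at least 10 cells) and scaled to CPM with TMM factors. Label differences were tested with edgeR 4.0.16 (glmQLFit, glmQLFTest, R 4.3.3) with the barcode list as a term and low genes removed by filterByExpr. Interactions used a model with 1 level per library. DESeq2 1.42.0 was an alternative. Shares were compared over libraries by exact permutation, without the barcode list term. The counts themselves, from 501865 to 4679380 UMIs per sum, set the precision.

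The genes named were the gate genes, B4galt1 and Muc13, list members called or most abundant, the called genes or, where fewer than 5 were called in a direction, those with the smallest p at a mean of at least 20 CPM, the 12 highest and 12 lowest state ratios at a mean of at least 50 CPM, and up to 5 genes per interaction. For the comparison with other cycling cells, some called genes with a mean under 20 CPM were also named. Cells rich in Pf4 and the other cells by which levels were compared were chosen after their values were seen.

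No doublet was removed in the results reported. Scrublet, run in scanpy 1.11.5, marked 20 of 24430 cells and had not worked, so the alternative removed the highest scores at 0.8% per 1000 barcodes, 22 of them members. The other alternatives are those in the closing section. On simulated counts with 200 genes changed by a log2 fold of 2, the label test recovered 92.5% (8386 genes) and the interactions 92.0% (9908 genes) and 84.0% (8980 genes). In the same order, 11, 13 and 8 unchanged genes were called. That fold exceeds the estimates of all genes called between labels except Ms4a3, and smaller changes were not simulated. The replicate numbers that the labels share, 1 to 3, were checked for pairing by correlation. The barcode list effect was left in, so that check cannot decide whether they pair the libraries. Promoter sequences came from RefSeq, and gene positions from the GENCODE annotation of GRCm38. Some genes of the lists are counted but not reported by name here.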

Additional observations from a re-analysis of the deposited data

Results flagged for a closer look

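In 3 of 24 sets of values checked, 1 of the 4 WT-labelled libraries stood far from the others, where chance gives about 1 in 20. Each time it was WT4, the only WT-labelled library of barcode list B. Its cycling stem-gated cells had Serpina3g at 171 CPM, Pf4 at 835 CPM and the gate gene Pdzk1ip1 at 76.5 CPM, with the gap to the next library taking 0.862, 0.984 and 0.887 of the group's range. The list B library of the other label, KO3, stood at 364, 3519 and 88.9 CPM for the same genes.

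Some label differences departed from those in neighbouring cells by the edgeR interaction test. Against quiescent stem-gated cells the departures were 0.74 log2 units for Inpp4b and 6.34 for Hbb-bs, the latter from 1 cell of KO3. Against other cycling cells they were -1.55 for Cd34, 7.60 for Hbb-bs, 2.76 for Plcb1, -1.97 for Adgrl4 and 1.89 for Rgs10. For Rgs10 the cycling stem-gated cells had 49.8, 9.38 and 99.4 CPM in KO1 to KO3 and 8.01, 11.5, 11.3 and 46.9 CPM in WT1 to WT4, and the other cycling cells 53.8, 23.4 and 79.2 CPM and 84.8, 74.8, 28.4 and 110 CPM.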

How the results depend on the processing

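The count of 6 genes between labels became 52 without a filter on low genes and 0 without the barcode list term, and ran from 4 to 22 with 1 library left out. The count of 3 genes that differed from quiescent cells became 0 with DESeq2, 13 without the filter, 9 in list A (none of them among the 3) and 5 at a mitochondrial limit of 5% (1 of them among the 3), and 3 to 19 with 1 library left out. The count of 18 that differed from other cycling cells became 9 with DESeq2, 82 without the filter, 2 without the list term, 10 at a limit of 5 proliferation UMIs and 1 at a mitochondrial limit of 5%, and 11 to 77 with 1 library left out. The unfiltered fits tested more genes, and the cause of the other shifts was not tested. The share among kept cells (0.52 percentage points) turned to -0.17 in list A, -0.045 at 4 stem genes and -1.08 in thinned cells, with 0.152 to 1.05 when 1 library was left out. The share among stem-gated cells (1.70) turned to -0.56, and to -0.952 in thinned cells, with -0.365 to 3.37 when 1 library was left out, the lowest without WT4.

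Same-numbered libraries deviated from their group means with correlations of 0.37, 0.71 and -0.32 over 7162 genes, and not every library correlated best with its own number. The barcode list effect was left in, and the highest correlation, 0.93, joined the list B libraries KO3 and WT4. These correlations therefore cannot decide whether a shared number marks a pair. With the replicate block, on libraries 1 to 3 of each label, 5 genes were called, 2 of them among the 6, and the shares differed by 0.152 (exact sign-flip p = 0.75) and -0.365 percentage points (exact p = 1.00, where 0.25 is the smallest possible). The Muc13 difference turned to -0.20 in list A and ran from -0.21 (without KO3 or WT4) to 0.26 with 1 library left out. That of Mki67 turned to 0.00040 at 5 proliferation UMIs and ran from -0.17 to 0.054 (without KO2) with 1 left out. Of the 6 called genes, none changed direction under its alternatives. Ctsg and Serpina3g passed in 16 of 18, Prtn3 in 15 of 18, Ms4a3 in 13 of 17, Inpp4b in 8 of 18 and Itga2b in 6 of 18. The WT-labelled list A libraries held 36 to 51 of these cells each.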
